A study of Mus musculus with 16 samples.

Results

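The genes Fat1, Camkmt, Mb21d2 and Dapk1 carry small H3K9me3 domains that were higher in small intestinal crypts of Smarcad1-KO mice than in WT. The members were all rows of the H3K9me3 peak table that overlapped a window around each gene on the GRCm38 build. From the first to the last peak these windows spanned chr8:44719951-45266700 (Fat1), chr17:85097251-85497000 (Camkmt), chr16:28603201-29142150 (Mb21d2) and chr13:60318001-60947250 (Dapk1). They numbered 220 of 212313 peaks, with 22 in the Fat1 window, 28 in the Camkmt window, 54 in the Mb21d2 window and 116 in the Dapk1 window. The windows were chosen because H3K9me3 was higher in KO than in WT within them, so that H3K9me3 differences between the genotypes, and the calls made from them, are given as a description that supports nothing further. H3K9me2, measured in other libraries, and the inputs were not used in that choice, although it is not known whether libraries of both marks shared animals.

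Chromatin immunoprecipitation and sequencing (ChIP-seq) for H3K9me3 or H3K9me2 was performed on whole crypt isolates of the small intestine from C57BL/6 mice, which were male according to the methods of the study. In KO mice, loxP-flanked exons 12 to 14 of Smarcad1, which encode residues needed for ATP binding by this chromatin remodeling factor, were removed by a Villin-driven Cre transgene that is active in the intestinal epithelium. The floxed line descended from 1 embryonic stem cell clone, and WT libraries were labelled only as wild type, so whether they carried Cre or loxP alleles was not given in the sources used here. For either mark 3 libraries were made per genotype, together with 1 input, that is chromatin sequenced without immunoprecipitation. No age was given for these mice, and the isolates hold every cell type of the crypt, in which a change in the cells present and a change per cell cannot be told apart. Recovered H3K9me3 reads in peaks ran from 7057182 (KO replicate 1) to 11834999 (KO replicate 2) per ChIP library, and the median peak held 23 to 38 reads. H3K9me2 reads in regions ran from 18986927 to 39080740.

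H3K9me3 marks condensed, repressed chromatin and is bound by heterochromatin protein 1, whereas H3K9me2 commonly forms wider and shallower domains over silent parts of chromosome arms. Fat1 encodes a giant atypical cadherin related to the Drosophila tumour suppressor fat. Camkmt encodes the enzyme that methylates a lysine of calmodulin, the calcium sensor that also binds the death-associated protein kinase encoded by Dapk1. Mb21d2 encodes a protein of the Mab-21 family, which shares its fold with the DNA sensor cGAS.

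The central 200 bases of the peak with the largest KO minus WT difference in each window are shown because CG dinucleotides, the sites of DNA methylation, set the higher peaks of these windows apart from the average peak in the values given further on. The sequences are the plus strand of the RefSeq GRCm38.p6 genome, CG is in capitals, and none of them overlapped an exon of the GENCODE M21 annotation.
Fat1, chr8:44957376-44957575: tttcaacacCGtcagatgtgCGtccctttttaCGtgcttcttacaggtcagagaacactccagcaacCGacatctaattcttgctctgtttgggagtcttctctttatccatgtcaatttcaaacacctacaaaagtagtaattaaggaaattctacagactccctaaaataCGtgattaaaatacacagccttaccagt
Camkmt, chr17:85311576-85311775: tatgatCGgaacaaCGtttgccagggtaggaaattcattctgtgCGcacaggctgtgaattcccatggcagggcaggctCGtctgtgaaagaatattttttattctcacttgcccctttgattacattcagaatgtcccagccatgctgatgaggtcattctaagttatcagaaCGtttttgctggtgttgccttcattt
Mb21d2, chr16:28839201-28839400: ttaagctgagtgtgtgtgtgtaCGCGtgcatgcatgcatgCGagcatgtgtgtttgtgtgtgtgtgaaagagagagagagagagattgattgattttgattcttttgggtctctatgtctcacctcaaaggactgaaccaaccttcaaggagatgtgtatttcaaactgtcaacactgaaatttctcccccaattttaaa
Dapk1, chr13:60705426-60705625: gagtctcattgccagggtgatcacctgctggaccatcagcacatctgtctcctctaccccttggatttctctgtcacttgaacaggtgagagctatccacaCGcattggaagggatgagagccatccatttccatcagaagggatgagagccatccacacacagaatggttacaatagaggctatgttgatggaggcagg
The Fat1 and Camkmt stretches held 5 CG each, the Mb21d2 stretch 3 and the Dapk1 stretch 1. Over all peaks, 64.9% held at least 1 CG in their central 200 bases, 16.4% at least 3 and 5.27% at least 5. Repeats masked in the genome sequence took 49% of the Mb21d2 stretch and 11.5% of the Camkmt stretch, and none of the Fat1 and Dapk1 stretches.

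In the 4 windows together, 44 peaks were called higher and 5 lower in KO (limma, Benjamini-Hochberg adjusted over all peaks, threshold 0.05), beside 0.252% higher and 2.46% lower among all peaks tested. Nothing is read from these counts, since the windows were picked from the same contrast. Of the 44 higher peaks, 42 lay in the 4 named genes, and none covered the transcription start of its gene. In all 44 the 3 KO values lay above the 3 WT values, and over the windows this held for 69 of 220 peaks, beside 7.3% of all peaks. All 3 KO values lay below the WT values in 14 of the 220, beside 8.21% of all peaks. The median log2 difference (KO minus WT) was 0.29 over the 220 peaks and 1.08 over the 44 higher ones, against 0.028 over all peaks tested. When limma was fitted without a trend of variance on level, 1 of the 44 calls was left, and DESeq2 on recovered read counts kept 23, whereas edgeR on the same counts kept 44. Over all peaks the same settings gave 16, 123 and 572 higher calls in place of 536.

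**Figure D1:**
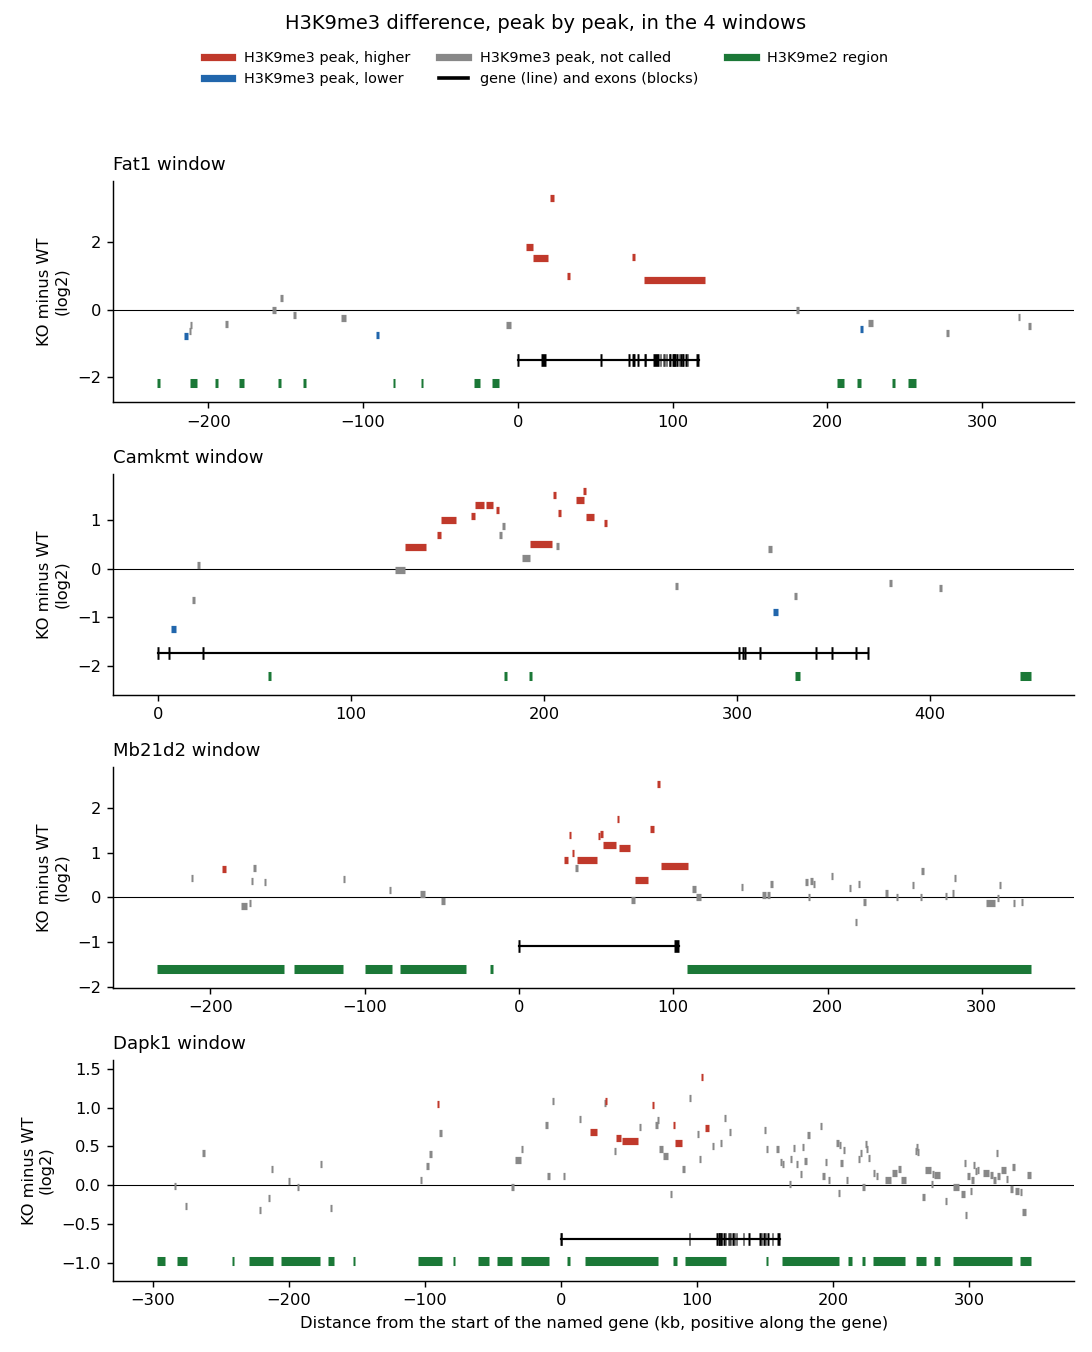
H3K9me3 difference (KO minus WT of the mean log2 value, vertical axis) of each peak against the distance from the start of the named gene (kb, positive along the gene), for each window. Segments are peaks, drawn at least 1.6 kb wide so that narrow ones can be seen, red for higher, blue for lower and grey for not called; black lines and blocks are genes and exons, green bars are H3K9me2 regions. Within the named genes the red segments begin 5.2 kb (Fat1), 128 kb (Camkmt), 29.3 kb (Mb21d2) and 21.6 kb (Dapk1) past the gene start, and 1 further red segment lies upstream of Mb21d2 (far end at -192.4 kb) and 1 upstream of Dapk1 (far end at -91.3 kb).

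Fat1 (chr8:44935447-45052257, plus strand, 27 exons in transcript Fat1-205) was covered by 6 H3K9me3 peaks, and all 6 were higher in KO. They began at position 44940601, 5.2 kb past the start of the gene, and ended at 45056100, 3.8 kb beyond its end, and covered 47% of the gene. With a minimum log2 difference of 1 the length from the first to the last higher peak fell from 115.5 to 70 kb. The peak with the largest difference, chr8:44956201-44958750 in intron 2, had log2 values of 3.93, 4.06 and 2.88 in WT replicates 1 to 3 and reached 6.85, 7.02 and 6.97 in KO replicates 1 to 3. These values correspond to 17, 16 and 9 recovered reads in WT and to 80, 153 and 127 in KO, while the inputs held 60 (WT) and 57 (KO) reads. The WT libraries thus held fewer reads here than their input and the KO libraries more, with a log2 difference of 3.32.

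Upstream in Fat1, the peak chr8:44940601-44945400 in intron 1 had a mean log2 value of 5.72 ± 0.47 in WT and 7.59 ± 0.07 in KO (SD, n = 3). The next peak, chr8:44945401-44954850, averaged 7.58 ± 0.34 and 9.11 ± 0.19 and held the whole of exon 2, a large exon of 3286 bp. These adjoining peaks form the beginning of the domain, and their differences were 1.87 and 1.53. The widest of the 44 higher peaks, chr8:45017101-45056100, spanned 39 kb from exon 8 to exon 27, the last exon, and also overlapped the gene model Gm2366. It had log2 values of 10.28, 10.32 and 10.16 in WT and of 11.05, 11.19 and 11.16 in KO, a difference of 0.88. Together the higher peaks overlapped 23 of the 27 exons of Fat1, and 24% of their length was exonic.

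Of the 16 peaks of the Fat1 window outside the gene, 15 had a negative difference, and their median was -0.44. Over all peaks, 54.7% had a positive difference. The peak next to the domain on the upstream side, chr8:44927701-44930700, lay 9.9 kb before its edge and averaged 6.72 ± 0.21 in WT and 6.25 ± 0.2 in KO. On the downstream side the nearest peak was 59.3 kb away, at chr8:45115351-45117300, and averaged 5.49 ± 0.19 and 5.48 ± 0.23. The lower peaks were chr8:44719951-44722500 (-0.77), chr8:44844301-44845350 (-0.74) and chr8:45156601-45158700 (-0.57). In the first of these KO replicate 1 stood apart at 4.81, against 5.98 and 6.08 in the other KO libraries and 6.31 to 6.52 in WT.

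Camkmt (chr17:85090552-85458588, plus strand, 11 exons) contained 26 peaks; 14 were called higher and 2 lower. All 14 higher peaks lay in intron 3, which is 277.7 kb long, between positions 85218601 and 85323150, and so overlapped no exon of the gene. This domain of 104.6 kb began 128 kb past the start of the gene and ended 135.4 kb before its end, and higher peaks filled 55.5% of it. By DESeq2, and with a minimum log2 difference of 1, 9 of its peaks were called and its length was 63.9 kb. The remaining 4 peaks within it were not called and had differences of 0.22 to 0.87.

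The largest difference in the Camkmt window was at chr17:85311151-85312200, with log2 values of 4.17, 3.66 and 3.06 in WT, whereas KO had 5.2, 5.48 and 5.01. The read counts behind them were low, at 20, 12 and 10 in WT and 26, 52 and 32 in KO, with 20 and 23 in the inputs. The adjoining peak chr17:85307101-85311150 was wider and had values of 6.16, 5.64 and 4.66 in WT and 6.8, 7.28 and 6.59 in KO. In both peaks the groups were separate, and WT replicate 3 was the lowest library. The widest peak of the domain, chr17:85283101-85294650, averaged 8.27 ± 0.15 in WT and 8.77 ± 0.13 in KO, a difference of 0.5.

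The position of the Camkmt edges depended on the calls, since the length was also 79.2 kb without WT replicate 3. At the proximal edge a not-called peak, chr17:85213501-85218450, averaged 6.98 ± 0.23 in WT and 6.96 ± 0.17 in KO, and 0.2 kb further on the first higher peak averaged 8.33 ± 0.32 and 8.77 ± 0.08. At the distal edge the next peak was 35.7 kb away, at chr17:85358851-85359900, with 5 ± 0.24 in WT and 4.64 ± 0.4 in KO. The 2 lower peaks lay in other introns of the same gene. The one in intron 2 near the start of the gene, chr17:85097251-85099800, had log2 values of 7.27, 6.88 and 6.96 in WT and 5.76, 5.9 and 5.78 in KO. Its difference of -1.23 was the most negative in the 4 windows. The one in intron 7, chr17:85409101-85411800, differed by -0.88. Camkmt thus held higher and lower peaks in separate introns.

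Mb21d2 (chr16:28826176-28929673, minus strand) has 2 exons separated by an intron of 100.4 kb. Of its 15 peaks, 13 were called higher and 0 lower, and 14 of the 15 had a positive difference. Outside the gene this held for 29 of 39 peaks of the window, with a median of 0.17. The higher peaks ran from position 28819801, 6.4 kb beyond the end of the gene, to 28900350, 29.3 kb short of its start, and filled 86.6% of these 80.6 kb. They covered 61.2% of the gene.

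The peak with the largest difference, chr16:28838401-28840200, had log2 values of 4.65, 3.09 and 2.7 in WT and 5.97, 6.25 and 5.87 in KO. WT replicate 1 held 28 recovered reads there and the other WT libraries 8 each, against 44, 89 and 59 in KO and 38 and 40 in the inputs. The WT libraries of this peak spanned more than the KO libraries, although the groups did not overlap. The widest Mb21d2 peak, chr16:28819801-28837650, contained exon 2 and the end of the gene and averaged 8.81 ± 0.3 in WT and 9.52 ± 0.02 in KO. The smallest difference among the higher peaks of the windows, 0.4, was also in this gene, at chr16:28846051-28854600, with 8.51, 8.22 and 8.02 in WT and 8.57, 8.69 and 8.68 in KO.

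Past the end of Mb21d2, 2.6 kb separated the domain from the not-called peak chr16:28815151-28817250, which averaged 5.47 ± 0.12 in WT and 5.67 ± 0.23 in KO. Towards the start of the gene no peak was present for 77.6 kb, and the next, chr16:28977901-28980300, averaged 6 ± 0.22 and 5.93 ± 0.25. The remaining higher peak of the window, chr16:29119651-29122050, lay far upstream of the gene and differed by 0.63. It stood apart from the others, and with it the distance from the first to the last higher peak of the window was 302.2 kb. It was not called by DESeq2 or without any 1 of KO replicates 1, 2 and 3 and WT replicates 2 and 3, and the distance was then 59 to 80.6 kb. It was 80.6 kb without this peak alone, and calls inside the gene were lost as well by DESeq2 (4 higher peaks left, 59 kb) and without KO replicate 2 or WT replicate 3 (12 and 11 left, 77.6 kb each).

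Dapk1 (chr13:60601947-60763191, plus strand, 26 exons in transcript Dapk1-202) contained 31 peaks. There were 9 higher and 0 lower calls among them, and 30 of the 31 had a positive difference. Outside the gene, 65 of the 85 peaks of the window were positive too, with a median of 0.15. The higher peaks lay between positions 60623551 and 60711150, which is 21.6 kb past the start and 52 kb before the end, and covered 20.1% of the gene. Of these, 7 were in intron 2 (93.6 kb) and 2 in intron 3 (20.2 kb), and none touched an exon. The domain was interrupted: 21 peaks lay between its ends, and higher peaks filled 37% of its 87.6 kb.

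Among the called peaks, differences were the smallest in the Dapk1 window, with a median of 0.76 over its 10 higher peaks against 1.55 at Fat1, 1.12 at Camkmt and 1.14 at Mb21d2. Over all peaks of each gene, called or not, Dapk1 and Camkmt were close, with medians of 0.66 and 0.69, against 1.11 at Mb21d2 and 1.55 at Fat1. The largest difference in Dapk1, at chr13:60705301-60705750, rested on few reads, namely 5, 10 and 10 in WT and 13, 20 and 20 in KO. Its log2 values were 1.96, 3.4 and 3.06 in WT, whereas KO had 4.18, 4.1 and 4.35. The widest peak, chr13:60646951-60658650, had more reads behind it and values of 7.98, 7.84 and 7.51 in WT and 8.35, 8.27 and 8.43 in KO. In this peak the groups were separate, with a difference of 0.57.

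The Dapk1 domain had no sharp edge. The not-called peak before it, chr13:60615751-60616500, averaged 3.69 ± 0.2 in WT and 4.54 ± 0.12 in KO, and the one 1.5 kb after it, chr13:60712651-60714600, averaged 5.14 ± 0.4 and 5.65 ± 0.09. Both differences, 0.85 and 0.51, were positive. The higher peak outside the gene, chr13:60510601-60512700, began at -91.3 kb from the start of Dapk1 and had values of 5.24, 4.86 and 4.56 in WT, whereas KO had 5.87, 6.09 and 5.85. The peak on its far side, chr13:60505651-60506550, averaged 4.17 ± 0.52 in WT and 4.56 ± 0.23 in KO and was not called. The count of higher peaks in this window rested on single libraries more than at the other genes, since it fell from 10 to 3 without KO replicate 3, to 5 without WT replicate 3 and to 6 without KO replicate 1.

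The levels over the higher peaks of each window were summed per library as matched reads per kb, that is 2 to the power of the deposited log2 value divided by the summed length of the peaks. At Fat1 they were 27.7, 26.7 and 23.4 in WT and 51.4, 58.4 and 54.6 in KO. At Camkmt they were 24.2, 20.9 and 15.6 in WT and 34.9, 38.2 and 32 in KO. At Mb21d2 they were 28, 21.8 and 15.5 in WT and 36.3, 40.8 and 37.4 in KO. KO libraries were thus close to each other and above every WT library at each of these genes. At Dapk1 the values were 19.8, 19.2 and 14.2 in WT, whereas KO had 28.9, 25.3 and 30.5. The ratio of the KO to the WT mean was 2.11 at Fat1, 1.73 at Camkmt, 1.75 at Mb21d2 and 1.59 at Dapk1. These peaks were picked for being higher. Over the not-called peaks of the same genes the ratio was 1.06 at Camkmt (10 peaks), 1.06 at Mb21d2 (2 peaks, 2.7 kb) and 1.37 at Dapk1 (22 peaks). KO replicate 2 was the highest library at Fat1, Camkmt and Mb21d2 and the lowest KO library at Dapk1.

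**Figure D2:**
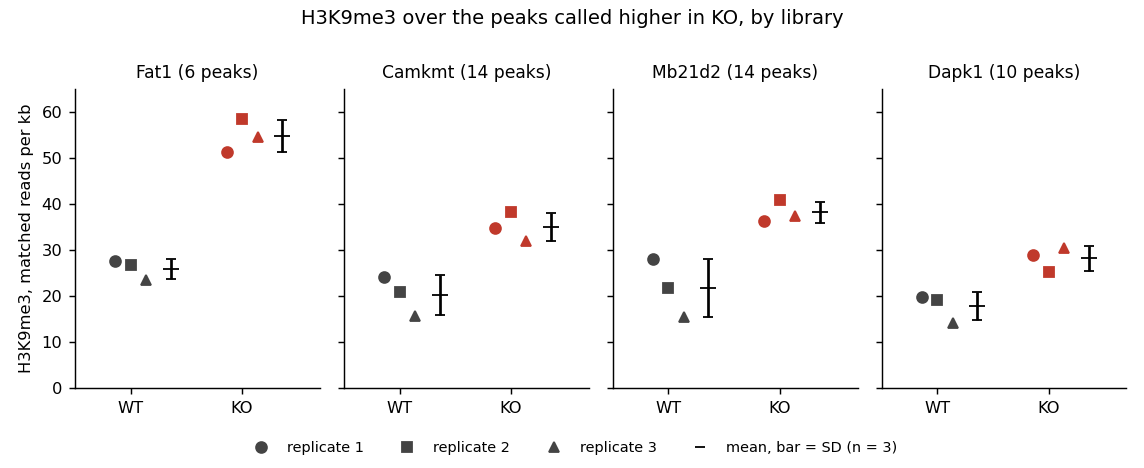
Matched reads per kb (vertical axis) summed over the peaks called higher in KO in each window, for 3 WT (grey) and 3 KO (red) libraries; circles, squares and triangles are replicates 1 to 3, and the bar beside them gives the mean and SD. KO means were 54.8 (Fat1), 35 (Camkmt), 38.2 (Mb21d2) and 28.2 (Dapk1), and WT replicate 3 was the lowest library in each panel.

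WT libraries varied among themselves in these peaks. WT replicate 3 was the lowest WT library in 40 of the 44 higher peaks, beside 31.8% of all peaks and 55.5% of the 492 higher peaks elsewhere, and WT replicate 1 was the highest in 33. The median difference between WT replicates 1 and 3 was 0.73 on the log2 scale in the 44 peaks, -0.01 over all peaks and 1.4 in the 14 higher peaks of the Mb21d2 window. The KO mean exceeded WT replicate 1 by a median of 0.68, WT replicate 2 by 0.92 and WT replicate 3 by 1.59. The SD of the WT values was above that of the KO values in 38 of the 44 peaks, beside 48.8% of all peaks. Without WT replicate 3, 33 of the 44 peaks were still called. The part of this library in the differences beyond that was not tested.

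**Figure D3:**
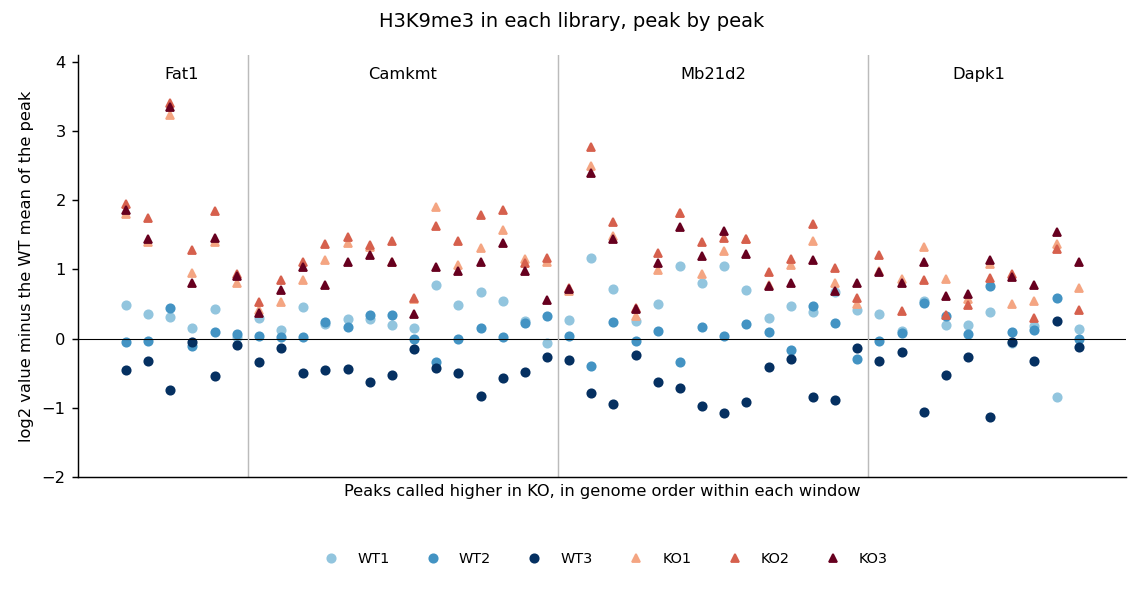
log2 value of each library minus the WT mean (vertical axis) for the 44 peaks called higher in KO, in genome order within each window; blue circles are WT and red triangles KO libraries. KO triangles lie above all WT circles of the same peak in 44 of 44 peaks, and the darkest circles, WT replicate 3, are the lowest in 40.

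Levels relative to input are a description as well, since the peaks were selected for lower values in WT than in KO. The log2 ratio of ChIP reads over input reads, each scaled to its reads in peaks, had a median of -0.24, -0.36 and -1.01 in WT replicates 1 to 3 over the 44 higher peaks and 0.26, 0.42 and 0.3 in KO replicates 1 to 3. The largest separation was at Fat1, with -0.76 ± 0.33 in WT and 0.6 ± 0.22 in KO. Single WT libraries lay above 0 elsewhere, at 0.13 in WT replicate 1 over the Mb21d2 peaks and 0.03 in WT replicate 2 over the Dapk1 peaks, and over all peaks the WT mean was -0.06. Over the 171 not-called peaks of the windows the ratios were -0.12 ± 0.08 and 0.02 ± 0.04. Peaks were called once on all ChIP libraries together, so a peak is listed whether or not WT libraries exceeded their input there.

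The inputs of the H3K9me3 experiment were compared as the share of input reads from KO, with exact Clopper-Pearson 95% intervals that cover counting error only. It was 51.5% (50 to 53.1%) over the Fat1 window, 50.7% (49.1 to 52.3%) over Camkmt, 50.4% (49.1 to 51.8%) over Mb21d2 and 51% (49.9 to 52.1%) over Dapk1, beside 48.9% over all peaks. Over the 44 higher peaks it was 52.2% (51.2 to 53.2%), which corresponds to a log2 ratio of 0.19 after scaling and compares with 52.9% over the higher peaks outside the windows. The share also moved with base composition, since it was 51.1% over all peaks with a GC content of 40.8 to 53%, the range of the 44 peaks, and 47.6% below that range. The part of the inputs in the H3K9me3 differences was not tested. With 1 input library per genotype, genotype and library cannot be told apart. In the H3K9me2 experiment the KO share was 51 to 51.7% over the windows and 51.3% over all regions.

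H3K9me2 had no part in the choice of the windows, and no difference between the genotypes was detected in it. None of the 50 regions in the windows, of 47065 tested, passed the threshold (edgeR quasi-likelihood test, 0 higher and 0 lower, beside 0% and 0.00212% of all regions), and DESeq2 also called 0. At an unadjusted p under 0.05 there was 1 region in the windows by edgeR, beside 3.12% of all regions, and 1 by DESeq2, beside 1.43%. CPM given here are reads scaled to the total of the library in regions after adjustment by its TMM factor. The region in the windows was chr16:28963951-29006700, upstream of Mb21d2, with 60, 52.2 and 52.6 CPM in WT and 60.5, 63.7 and 60.8 in KO. Its log2 difference was 0.16 with a 95% interval of 0.04 to 0.28 (edgeR adjusted p = 1), and it overlapped no higher H3K9me3 peak. Median log2 differences were -0.04 in the Fat1 window, -0.12 in the Camkmt window, -0.01 in the Mb21d2 window and -0.04 in the Dapk1 window.

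The 4 genes differed in where H3K9me2 regions lay relative to the H3K9me3 domain. No H3K9me2 region overlapped Fat1 or Mb21d2, which lay in stretches free of such regions of 218.6 kb and 126.2 kb. The Mb21d2 stretch was bordered by an H3K9me2 region of 222.6 kb that ended at position 28820550, inside the higher H3K9me3 peak over the end of the gene. Camkmt held 4 short regions that covered 1.71% of the gene. In Dapk1, by contrast, H3K9me2 regions covered 55.5% of the gene, and each of the 10 higher H3K9me3 peaks of the window overlapped one. Over the windows 13 of the 44 higher peaks (29.5%) overlapped an H3K9me2 region, beside 67.6% of the other window peaks, 68.2% of all H3K9me3 peaks and 46.3% of the higher peaks elsewhere. By length, 15.8% of the 44 peaks lay in such regions, beside 62%, 65% and 32%. The H3K9me2 regions cover only peaks called by the authors, so a stretch without one is not a measurement of 0.

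In the H3K9me2 regions that met a higher H3K9me3 peak, values of the genotypes lay among each other. These values are totals of whole regions and not of the overlaps alone. Higher H3K9me3 peaks took 0.337 to 86.4% of the length of these regions, with 41.6% and 12.9% for the Dapk1 regions given first. The region chr13:60619951-60673650, which overlapped 5 higher H3K9me3 peaks of Dapk1, held 49.5, 40.4 and 39.2 CPM in WT and 44, 43.3 and 41.5 in KO. Its log2 difference of -0.01 had a 95% interval of -0.16 to 0.14. The region chr13:60693151-60723300 held 29.5, 21.7 and 23.5 in WT and 26.8, 24.2 and 24.3 in KO, a difference of 0 (-0.18 to 0.19). WT replicate 1 was the highest library in both. The region with the largest share, chr13:60684301-60687600 (86.4%), held 4.13, 2.43 and 2.15 CPM in WT and 3.25, 2.85 and 2.82 in KO. Its difference of 0.01 had a wide interval of -0.42 to 0.44. The small region in the Camkmt domain, chr17:85282801-85284000, differed by -0.21 with a wide interval of -0.67 to 0.24. For the 7 regions that overlapped a higher H3K9me3 peak, the median difference was -0.01.

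**Figure D4:**
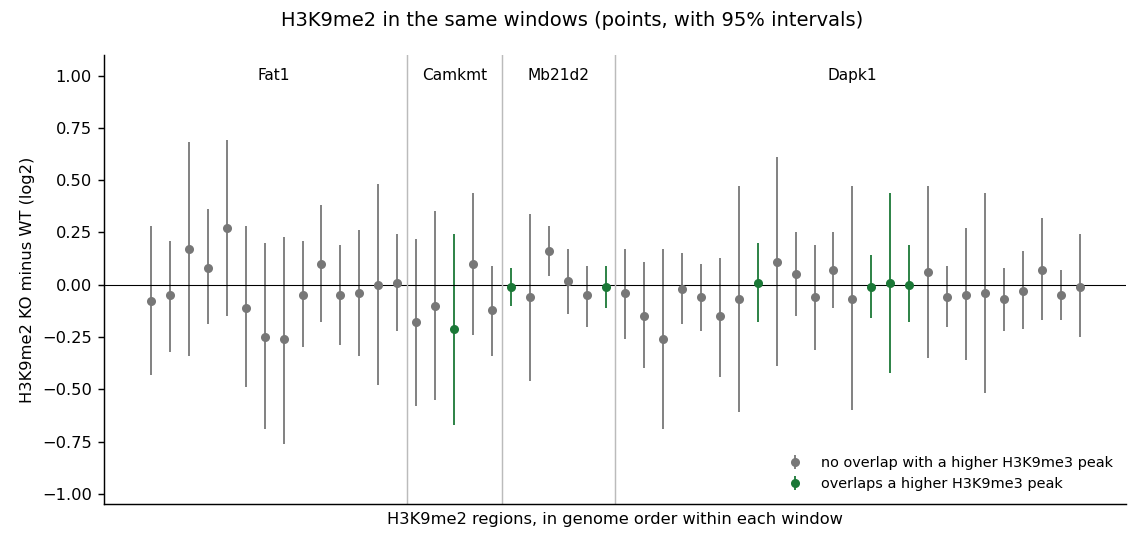
H3K9me2 difference (KO minus WT, log2, vertical axis) with 95% intervals from edgeR for the 50 regions of the windows in genome order; green points overlap a peak with higher H3K9me3. The differences lie between -0.26 and 0.27, and the interval of 1 region, in the Mb21d2 window, leaves out 0.

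The higher peaks shared features of sequence that the choice of windows did not use. They held 1.76 CG per 100 bp against 0.89 in the not-called peaks of the windows and 0.66 over all peaks, and 18.1% of their length was masked as repeats against 33.5% and 42.3%. Of the 44, 43 had more CG per 100 bp than the median of all peaks (0.52), as did 132 of the 171 not-called peaks. The highest value, 5.24, was in the Fat1 peak over exons 5 and 6, and the lowest, 0.44, in the Dapk1 peak with the largest difference. The not-called peaks inside the named genes were closer to the higher peaks, with 1.3 CG per 100 bp and 26% masked. The 492 higher peaks elsewhere had 1.37 CG per 100 bp and 22% masked, so these features were not particular to the 4 genes. Among all peaks with the same GC range and at least the median CG content of the 44, 1.3% were called higher and 5.19% lower. The higher peaks were also wider, with a median of 2625 bp against 1350 bp over all peaks, and the higher peaks elsewhere had a median of 2250 bp.

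**Figure D5:**
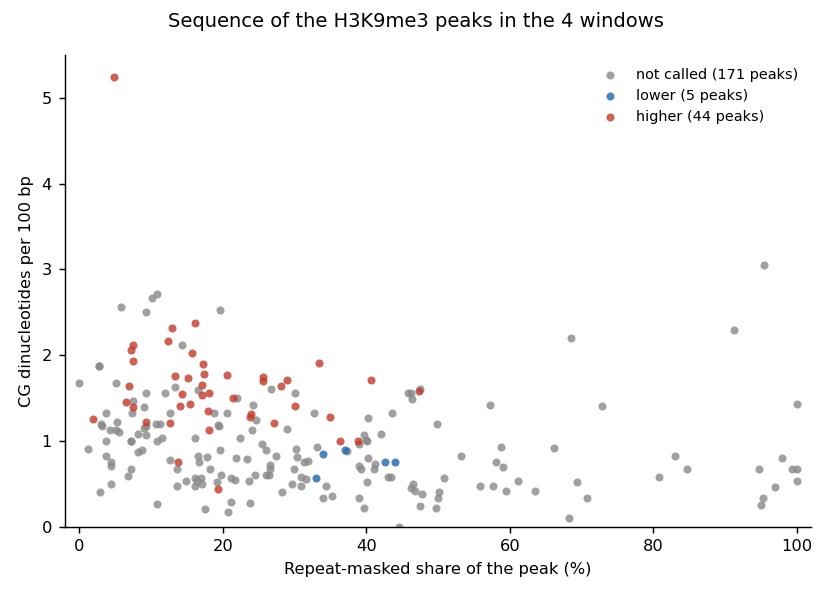
CG dinucleotides per 100 bp (vertical axis) against the repeat-masked share of the peak (%, horizontal axis) for the 220 H3K9me3 peaks of the windows, red for the 44 higher, blue for the 5 lower and grey for the 171 not called. Most red points lie at low repeat content, and 40 of them are under the median masked share of all peaks, 35.2%, as are 107 of the grey points.

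Among other genes, called peaks lay over 3 gene models that are not annotated as protein coding, namely the higher peak of 39 kb over Gm2366, the higher peak chr13:60623551-60628500 over Gm48582, and the lower peak chr8:45156601-45158700 over Gm30504. Of 18 further protein-coding genes that overlap a window, counted over their whole length also where they run beyond it, 14 carried H3K9me3 peaks. These were 69 distinct peaks with a median difference of 0.07 and 0 higher and 0 lower calls, which at 0.252% and 2.46% of all peaks is near the background. They include Fgf12, a fibroblast growth factor homologous factor next to Mb21d2 with 26 peaks and a median of 0.03, and the coagulation factor XI gene F11 and the plasma prekallikrein gene Klkb1 downstream of Fat1, with 1 peak each (-0.21 and -0.49). Ppm1b, a protein phosphatase gene upstream of Camkmt, had 2 peaks with a median of -0.42. Downstream of Dapk1 were the trophoblast genes Tpbpa and Tpbpb and the protease inhibitor genes Ctla2a and Ctla2b, with medians of -0.22 to 0.08. The highest median among the neighbours was that of BC051665, at 0.48 over 2 peaks, followed by 4930486L24Rik at 0.21, Gm49392 at 0.13, Gm49391 and Gm49393 at 0.12 and Ctsll3 at 0.07. Mtnr1a, Gm45753, Slc3a1 and Prepl had no peak.

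Relatives of the 4 genes outside the windows were counted against the same 0.252% higher and 2.46% lower calls of all peaks. Among 7 genes of FAT and dachsous cadherins and their regulator Fjx1, 3 had peaks, and the 149 peaks outside the window, over Fat3 and Fat4, gave 0 higher and 0 lower calls with a median of 0.04. Among 10 methyltransferase genes of the family of Camkmt, Etfbkmt was the other gene with peaks, 2 in number with a median of -0.32 and no call. Of 11 genes related to Mab-21 and cGAS, 5 had peaks, and Mab21l1 (0.43) and Mab21l2 (0.61), developmental regulators, had 1 higher peak each, that is 2 of the 5 peaks of this list outside the windows. Of 8 genes for death-associated protein kinases, calmodulin and Camkmt, Dapk1 and Camkmt were the 2 with peaks. These counts are a description of lists compiled with earlier results known.

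At the limits of the windows, peaks inside and outside were compared once. In the Dapk1 window the last peak inside the right limit averaged 6.12 ± 0.19 in WT and 6.25 ± 0.11 in KO, and the nearest outside 6.08 ± 0.29 and 6.35 ± 0.07. On its left the peaks inside and outside differed by -0.01 and -0.33. At Mb21d2 the differences were -0.09 inside and -0.12 outside on the left and 0.43 and 0.13 on the right. At Camkmt they were -1.23 and -0.34 on the left and -0.4 and -0.66 on the right, and at Fat1 -0.77 and -0.73 on the left and -0.49 and -0.45 on the right. The outer peaks at the left limit of Fat1 and the right limit of Camkmt were called lower.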

How the data were processed

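ChIP-seq libraries were trimmed with Trim Galore 0.4.4 and mapped to GRCm38 with Bowtie2 2.3.2 by the authors, and MACS peaks were called in SeqMonk once per mark on all ChIP libraries against both inputs. For H3K9me3 the authors deposited log2 read counts for each peak, and the 6 ChIP libraries had been matched in distribution, which removes any shift over all peaks. The inputs had not been matched. For H3K9me2 the deposited signal is the mean count of the MACS peaks grouped in a region, and multiplied by the number of peaks it lay within 0.00114 of a whole number in every region. Shorter tables deposited by the authors listed peaks past their own edgeR test, with read counts or log2 values and an adjusted p-value per peak, and were not used. Of the per-sample columns 0 lacked a sample, and 8 that hold standard deviations were left out.

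H3K9me3 was fitted with limma 3.58.1 (lmFit, then eBayes with a variance trend) using the deposited values of all peaks and H3K9me2 with the edgeR 4.0.16 quasi-likelihood test (TMM) over all regions, both two-sided with genotype as the single term and a Benjamini-Hochberg adjusted p-value threshold of 0.05. Reads of H3K9me3 were recovered from the ranks of the log2 values in each library and returned the deposited values within 0.002 for 99.7% of peaks. In 9 peaks of the windows at least 1 library was extrapolated. Sequence came from RefSeq GRCm38.p6 and gene models from GENCODE M21, with exons from the longest principal transcript. DESeq2 1.42.0, R 4.3.3 and Python 3.11.15 were used.

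Titles of the samples gave group and replicate, and figure legends of the study speak of biological replicates. Where libraries came from the same animals is not given, so p-values measure the spread between these libraries. The members, gene lists and settings were chosen with earlier results of these data known. Peaks named were those called in a window, the not-called peaks next to the first and last higher peak, those at the window limits, and H3K9me2 regions over a higher H3K9me3 peak or with the smallest p. Other tests, filters, thresholds, a block on replicate number and fits lacking 1 library were the alternatives.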

Additional observations from a re-analysis of the deposited data

How the results depend on the processing

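Of the 44 peaks called higher, limma without a variance trend kept 1 (1 at Fat1 and 0 at Camkmt, Mb21d2 and Dapk1) and 0 of the 5 lower ones, for reasons that were not tested, and over all peaks it gave 16 higher calls in place of 536 and 87 lower in place of 5226. DESeq2 on recovered counts called 23 higher (9 at Camkmt, 4 at Mb21d2, 4 at Dapk1) and 2 lower, and 123 and 2274 over all peaks. An added minimum log2 difference of 1 left 27 higher (9 at Camkmt, 9 at Mb21d2, 4 at Dapk1) and 1 lower, and an adjusted p under 0.01 left 36 higher, with 4 at Dapk1, and 2 lower. Leaving out single libraries gave 33 to 45 higher and 3 to 5 lower peaks, with 3 to 11 higher at Dapk1. With a minimum mean log2 value of 4 the Dapk1 peak with the largest difference was not tested. H3K9me2 calls in the windows were 0 throughout.

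Replicate numbers did not pair the H3K9me3 libraries: the deviations of WT and KO libraries of one number from their group means had correlations of -0.01, 0.01 and -0.01. For H3K9me2 these correlations were 0.18, 0.02 and 0.08. With a replicate block 45 peaks were higher and 5 lower in the windows, and 0 H3K9me2 regions of the windows were called. Over all H3K9me2 regions the block gave 2 higher and 15 lower calls in place of 0 and 1. Depth limits the narrow peaks, such as the Dapk1 peak with 5 to 20 reads per library, and the H3K9me2 interval of the small Camkmt region runs from -0.67 to 0.24.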
